A study of Mus musculus with 8 samples.

Results

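Broad accessible domains are stretches of open chromatin several times longer than an ordinary ATAC-seq peak, and 74 of them were found among 443327 regions of mouse brain chromatin. ATAC-seq marks accessible DNA by the cuts of the transposase Tn5. Overlapping peaks were merged within each of 8 libraries, and the merged lists were joined into a union of regions. A region was called broad, and is a member of the set described here, when it held a merged region of 2000 bp or more in at least 4 of the 8 libraries. Widths therefore chose the members, and their widths are described below with no test. The width of a member in a library is that of the widest merged region it holds there.

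The libraries came from C57Bl/6J mice in 4 groups of 2, each from 50000 nuclei. PLX chow and control chow libraries were made from microdissected dorsal lateral geniculate nucleus (dLGN, where retinal input reaches the thalamus) at postnatal day 32, after a chow with the compound spelled PLX5562 in the labels, given to remove microglia, or a control chow from postnatal day 20. Fn14 KO libraries and those of WT littermates, untreated, came from coronal brain sections with cortex, hippocampus and dLGN at postnatal day 27. Fn14 is the receptor, encoded by Tnfrsf12a, of the cytokine TWEAK. The labels name no deletion allele, do not say whether animals were pooled, and do not say that libraries of a group came from separate animals, so the spread between libraries may be technical. The diet groups differ from the genotype groups in tissue, age and dissection at once, and these cannot be told apart. In bulk tissue, fewer cells with open chromatin and less open chromatin per cell cannot be told apart either.

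Most accessible regions are short and hold the binding sites of transcription factors in an enhancer or promoter. The longest ones tend to lie at promoters rich in CG dinucleotides, the CpG islands, which are kept free of DNA methylation and of stable nucleosomes. In many tissues such long promoter domains sit at genes of cell identity and of transcriptional regulation, and in neurons also at long genes with roles at synapses.

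The promoter sequences of 8 genes at members named below are printed, together with that of a transcript that starts opposite to Kmt2e. No result on widths rests on these sequences. Each sequence runs 5′ to 3′ on the strand of the gene, from 250 bases before to 50 bases after the annotated start, as given by RefSeq on GRCm38.p6, and every CG dinucleotide is in capitals. Chst2, Tmtc1 and Setd7 stood at 2000 bp or more in all 8 libraries.
Chst2, chr9:95407221-95407520, minus strand: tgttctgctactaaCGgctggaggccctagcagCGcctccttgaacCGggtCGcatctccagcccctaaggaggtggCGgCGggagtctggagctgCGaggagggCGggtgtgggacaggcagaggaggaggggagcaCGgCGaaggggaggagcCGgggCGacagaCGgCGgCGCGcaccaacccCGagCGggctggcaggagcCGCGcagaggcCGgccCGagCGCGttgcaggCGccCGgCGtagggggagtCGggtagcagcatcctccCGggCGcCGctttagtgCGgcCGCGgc
Tmtc1, chr6:148444303-148444602, minus strand: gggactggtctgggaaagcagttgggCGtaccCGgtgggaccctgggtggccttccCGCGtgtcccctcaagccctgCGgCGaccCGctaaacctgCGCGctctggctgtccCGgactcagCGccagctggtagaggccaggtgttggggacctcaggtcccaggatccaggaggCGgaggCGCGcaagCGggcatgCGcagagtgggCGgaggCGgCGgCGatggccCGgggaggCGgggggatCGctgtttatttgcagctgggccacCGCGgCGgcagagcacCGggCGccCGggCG
Setd7, chr3:51560774-51561073, minus strand: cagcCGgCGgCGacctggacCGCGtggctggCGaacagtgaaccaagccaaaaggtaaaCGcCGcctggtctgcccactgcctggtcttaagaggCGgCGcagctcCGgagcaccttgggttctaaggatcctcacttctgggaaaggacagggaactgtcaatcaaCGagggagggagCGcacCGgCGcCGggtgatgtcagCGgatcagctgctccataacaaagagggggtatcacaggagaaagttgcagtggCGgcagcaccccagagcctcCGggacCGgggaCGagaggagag
Fat3 reached the greatest width of any protein-coding gene with a known product, and Sp3, with 2 starts, was narrower under PLX chow.
Fat3, chr9:16502005-16502304, minus strand: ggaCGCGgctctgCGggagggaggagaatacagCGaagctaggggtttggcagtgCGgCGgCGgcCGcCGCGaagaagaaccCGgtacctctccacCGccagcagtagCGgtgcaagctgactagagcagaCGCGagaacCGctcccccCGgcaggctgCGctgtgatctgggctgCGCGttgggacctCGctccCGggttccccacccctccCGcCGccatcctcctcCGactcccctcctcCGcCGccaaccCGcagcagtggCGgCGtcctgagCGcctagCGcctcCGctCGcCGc
Sp3, chr2:72980397-72980696, minus strand: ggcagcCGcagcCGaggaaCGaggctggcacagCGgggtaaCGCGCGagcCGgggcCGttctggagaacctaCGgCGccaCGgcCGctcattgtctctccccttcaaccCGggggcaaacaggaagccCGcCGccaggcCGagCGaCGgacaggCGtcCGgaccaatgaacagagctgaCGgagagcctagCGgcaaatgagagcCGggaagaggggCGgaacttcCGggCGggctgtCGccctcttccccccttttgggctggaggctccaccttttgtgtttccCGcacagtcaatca
Sp3, chr2:72979232-72979531, minus strand: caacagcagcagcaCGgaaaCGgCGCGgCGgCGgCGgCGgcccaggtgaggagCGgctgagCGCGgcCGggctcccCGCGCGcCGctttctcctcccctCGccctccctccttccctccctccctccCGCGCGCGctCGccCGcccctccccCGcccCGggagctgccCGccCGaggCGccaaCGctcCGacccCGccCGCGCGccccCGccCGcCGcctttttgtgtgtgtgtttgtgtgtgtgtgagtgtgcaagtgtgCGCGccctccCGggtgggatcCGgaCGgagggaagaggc
Ppfia2 and Cadps were broad in dLGN libraries alone.
Ppfia2, chr10:106470060-106470359, plus strand: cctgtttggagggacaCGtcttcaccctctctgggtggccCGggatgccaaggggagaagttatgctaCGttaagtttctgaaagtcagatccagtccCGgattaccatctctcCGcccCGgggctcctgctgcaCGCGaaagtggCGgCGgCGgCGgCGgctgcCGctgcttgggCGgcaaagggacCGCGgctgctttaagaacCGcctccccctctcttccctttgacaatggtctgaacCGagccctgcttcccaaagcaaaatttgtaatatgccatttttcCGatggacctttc
Cadps, chr14:12823030-12823329, minus strand: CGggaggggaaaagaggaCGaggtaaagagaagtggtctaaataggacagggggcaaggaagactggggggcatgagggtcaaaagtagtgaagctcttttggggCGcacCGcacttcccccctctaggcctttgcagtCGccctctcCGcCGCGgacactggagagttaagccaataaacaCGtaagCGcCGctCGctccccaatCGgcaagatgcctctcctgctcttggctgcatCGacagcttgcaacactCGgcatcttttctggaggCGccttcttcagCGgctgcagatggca
Tiparp and Kmt2e were broad in section libraries alone. Kmt2e itself has no entry, and the one shown belongs to 5031425E22Rik, a noncoding transcript on the opposite strand whose start lies inside the Kmt2e member.
Tiparp, chr3:65528197-65528496, plus strand: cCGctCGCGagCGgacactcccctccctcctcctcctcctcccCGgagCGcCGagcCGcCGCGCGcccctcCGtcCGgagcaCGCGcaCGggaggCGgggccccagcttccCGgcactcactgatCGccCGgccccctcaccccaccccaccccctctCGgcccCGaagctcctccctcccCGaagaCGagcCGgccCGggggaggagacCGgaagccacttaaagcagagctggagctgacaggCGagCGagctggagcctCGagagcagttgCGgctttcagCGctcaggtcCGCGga
5031425E22Rik, chr5:23433287-23433586, minus strand: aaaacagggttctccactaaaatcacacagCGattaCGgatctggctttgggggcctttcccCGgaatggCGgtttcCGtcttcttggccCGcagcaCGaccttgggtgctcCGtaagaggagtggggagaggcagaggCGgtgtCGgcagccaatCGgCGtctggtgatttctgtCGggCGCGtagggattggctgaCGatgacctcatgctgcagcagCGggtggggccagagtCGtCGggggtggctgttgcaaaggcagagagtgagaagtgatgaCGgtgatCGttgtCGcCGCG
The Chst2 promoter held 34 CG dinucleotides and 73% G and C, that of Tmtc1 30 and 72.3%, and that of Fat3 35 and 71.3%. The upstream Sp3 promoter held 29 CG dinucleotides and the downstream one 42. The Setd7 promoter held 21, that of Ppfia2 20, that of Cadps 17, that of Tiparp 34 and that of 5031425E22Rik 24. Over all promoters inside members with an entry the count ran from 7, at Tmem198b, to 56.

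One member of high width lies next to a microRNA cluster. The region chr14:115040064-115042678 is 49523 bp from its nearest protein-coding gene, Gpc5, and 993 bp from the hairpin of Mir17, the first of 6 hairpins that follow it on the plus strand up to 1749 bp away. These are the miR-17-92 microRNAs, which restrain cell cycle inhibitors and pro-apoptotic genes. Their mature guide sequences from RefSeq are shown with bases 2 to 8, the seed that pairs with targets, in capitals.
mmu-miR-17-5p: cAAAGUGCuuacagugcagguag
mmu-miR-20a-5p: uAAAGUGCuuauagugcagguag
mmu-miR-18a-5p: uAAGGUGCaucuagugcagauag
mmu-miR-19a-3p: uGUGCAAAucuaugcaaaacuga
mmu-miR-19b-3p: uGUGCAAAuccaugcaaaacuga
mmu-miR-92a-3p: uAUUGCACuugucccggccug
The miR-17-5p and miR-20a-5p sequences share the seed AAAGUGC, and miR-19a-3p and miR-19b-3p share GUGCAAA, while the seeds of miR-18a-5p (AAGGUGC) and miR-92a-3p (AUUGCAC) stand alone among these 6. The member beside the cluster was broad in every library, at 2068 and 2090 bp in PLX chow, 2072 and 2084 bp in control chow, 2489 and 2404 bp in KO and 2584 and 2476 bp in WT libraries. Its section widths all lay above its dLGN widths.

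Members sat at gene starts. A start of a protein-coding gene lay inside or within 1000 bp of 65 of 74 members (87.8%, 95% Wilson interval 78.5% to 93.5%), against 5.17% of all union regions and 19.7% of the 71365 union regions found in all 8 libraries. Where the gene had no promoter entry, either end of its interval was taken as a start, in members and in all regions alike. A wide region meets a start more often by its width alone. Within a window of 500 bp around the region centre, which does not depend on width, a start was found in 35 members (47.3%, 36.3% to 58.5%), against 3.56% of all union regions and 16.6% of those in all 8 libraries. The 43 regions that were broad in 3 libraries, and so fell short of the rule, gave 88.4% within 1000 bp. By this assignment 42 members lie at an annotated start, 23 at an end of a gene without a promoter entry and 6 inside a gene away from its annotated start. The other 3 are the region beside Mir17 and 2 regions with no protein-coding gene within 50 kb, chr16:50528660-50530856 and chr15:85669482-85671793.

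Starts on both strands lay inside or within 1000 bp of 6 members (8.11%, 3.77% to 16.6%). The share was 0.229% of all union regions and 1.28% of those in all 8 libraries. Of the 43 regions broad in 3 libraries, 1 had them (2.33%, 0.412% to 12.1%). A wide region also meets starts on both strands more often by its width alone. The 72 genes at members had a median length of 87606.5 bp, against 24892 bp for the 13725 genes whose start met a region in all 8 libraries and 17169 bp for all 21887 protein-coding genes. Longer than 100 kb were 31 of the 72 genes (43.1%), against 15.1% of those 13725 genes. Chromosome X held 4 members (5.41%), against 1.69% of union regions, and chromosome 10 held 7 (9.46%), against 5.71%. Chromosome 13 held 6 (8.11%), against 4.89%, and chromosome 8 held 1 (1.35%), against 5.23%. Counts per chromosome are small and were not tested, so nothing is read from them.

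The extent of a member around its start could be measured where it held 1 protein-coding start, in 30 members. The median over these members was 817 bp upstream and 1317 bp downstream, and 24 of the 30 reached further downstream than upstream. The same order held in each library, with medians of 667.5 to 818.5 bp upstream and 1091.5 to 1407 bp downstream. Ppfia2, Elf2, Med12l and the predicted gene LOC108167694 were among the 6 that reached further upstream. At Crlf2 the upstream reach of the widest merged region, negative where the region began downstream of the start, was −861 and −893 bp in PLX chow, −860 and −871 bp in control chow, −123 and 87 bp in KO and −134 and 69 bp in WT libraries, so the start lay outside it in each dLGN library and inside it in 2 section libraries.

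**Figure D1:**
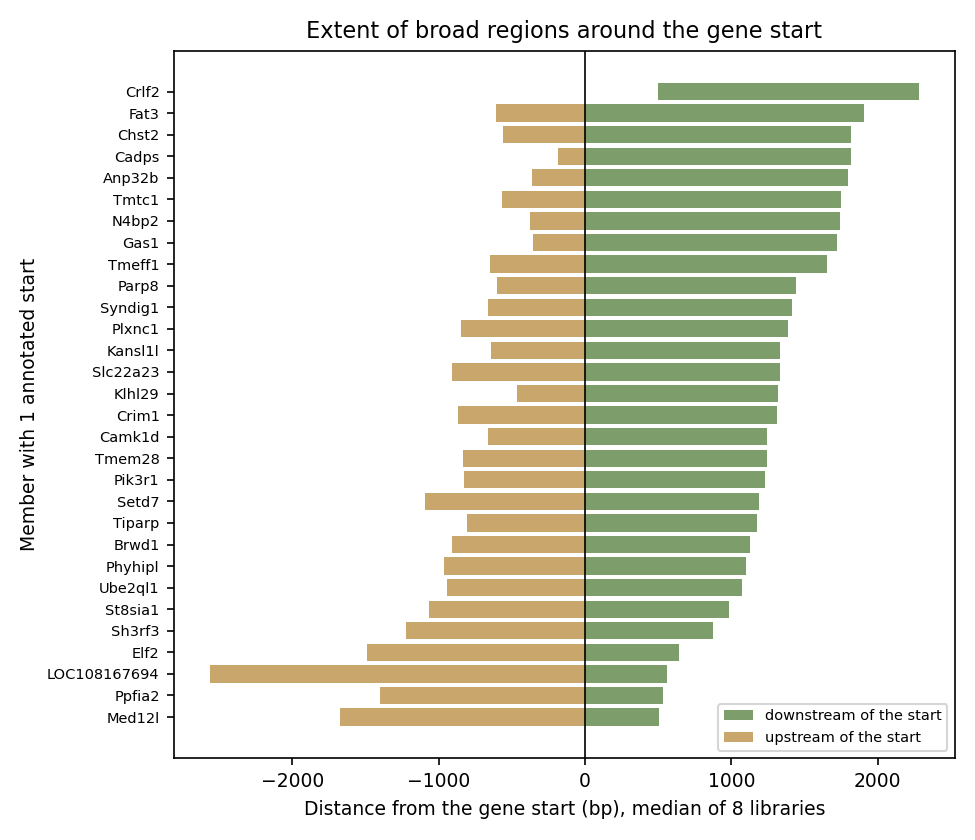
Reach of the 30 members with 1 annotated protein-coding start, in bp from that start and along the direction of transcription (horizontal axis, median of 8 libraries per member). Bars to the right are downstream and bars to the left upstream, with a median of 1317 bp downstream and 817 bp upstream, and the Crlf2 bar, a median over dLGN and section libraries that differed, begins downstream of the start.

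Promoter entries exist for 48 of the 72 genes at members (66.7%), short of the 80% set as the minimum for a statement on a set of genes, so a comparison of base composition over the set is void. Of the promoters that lie inside members, 60 from 47 genes are in the table, with a median G and C content of 69.3%, an interquartile range of 62.6% to 75.8% and a median of 31 CG dinucleotides. The values below describe these 60 promoters alone, and the shares over other promoters are given for scale with nothing read from the difference. The GC-box core GGGCGG was present on either strand in 76.7% of the 60, against 67.2% of the 12505 promoters in regions of all 8 libraries and 46.2% of all promoters. The TATA-box core TATAAA was present in 6.67%, against 6.12% and 12.6%, CCAAT in 25%, against 38.4% and 38.2%, TGACTCA in 1.67%, against 3.12% and 4.66%, and CACGTG in 8.33%, against 10.2% and 7.84%.

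Members held a median of 7 summits per library (6.5 in PLX chow 1), while the mean over all merged regions was 1.30 to 1.38. Neighbouring summits inside members lay a median of 283.5 to 302.5 bp apart, against 258 to 263 bp inside all merged regions. The number of summits follows from the width that chose the members. The authors' own values for each peak, −log10 p and fold over local background, were high without being extreme. The median member stood at the 95.1 to 96.1 percentile of its library by −log10 p and at the 85.9 to 89.1 percentile by fold, 1 to 2 members per library were among the 1000 regions of highest −log10 p, and 0 were among the 100 highest.

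Over members and libraries the width ran from 564 to 3183 bp, and the median of the members' median widths was 2064.5 bp, against a median of 281 to 308 bp for all merged regions of a library. In all 8 libraries 12 members were broad, and 30 were broad in just 4. Of the 74, 52 had a median width of 2000 bp or more. All 74 had a region in each library. Widths varied by over 1000 bp between libraries in 27 members and by under 100 bp in 3, which were LOC108167694, Chst2 and the glypican gene Gpc6.

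**Figure D2:**
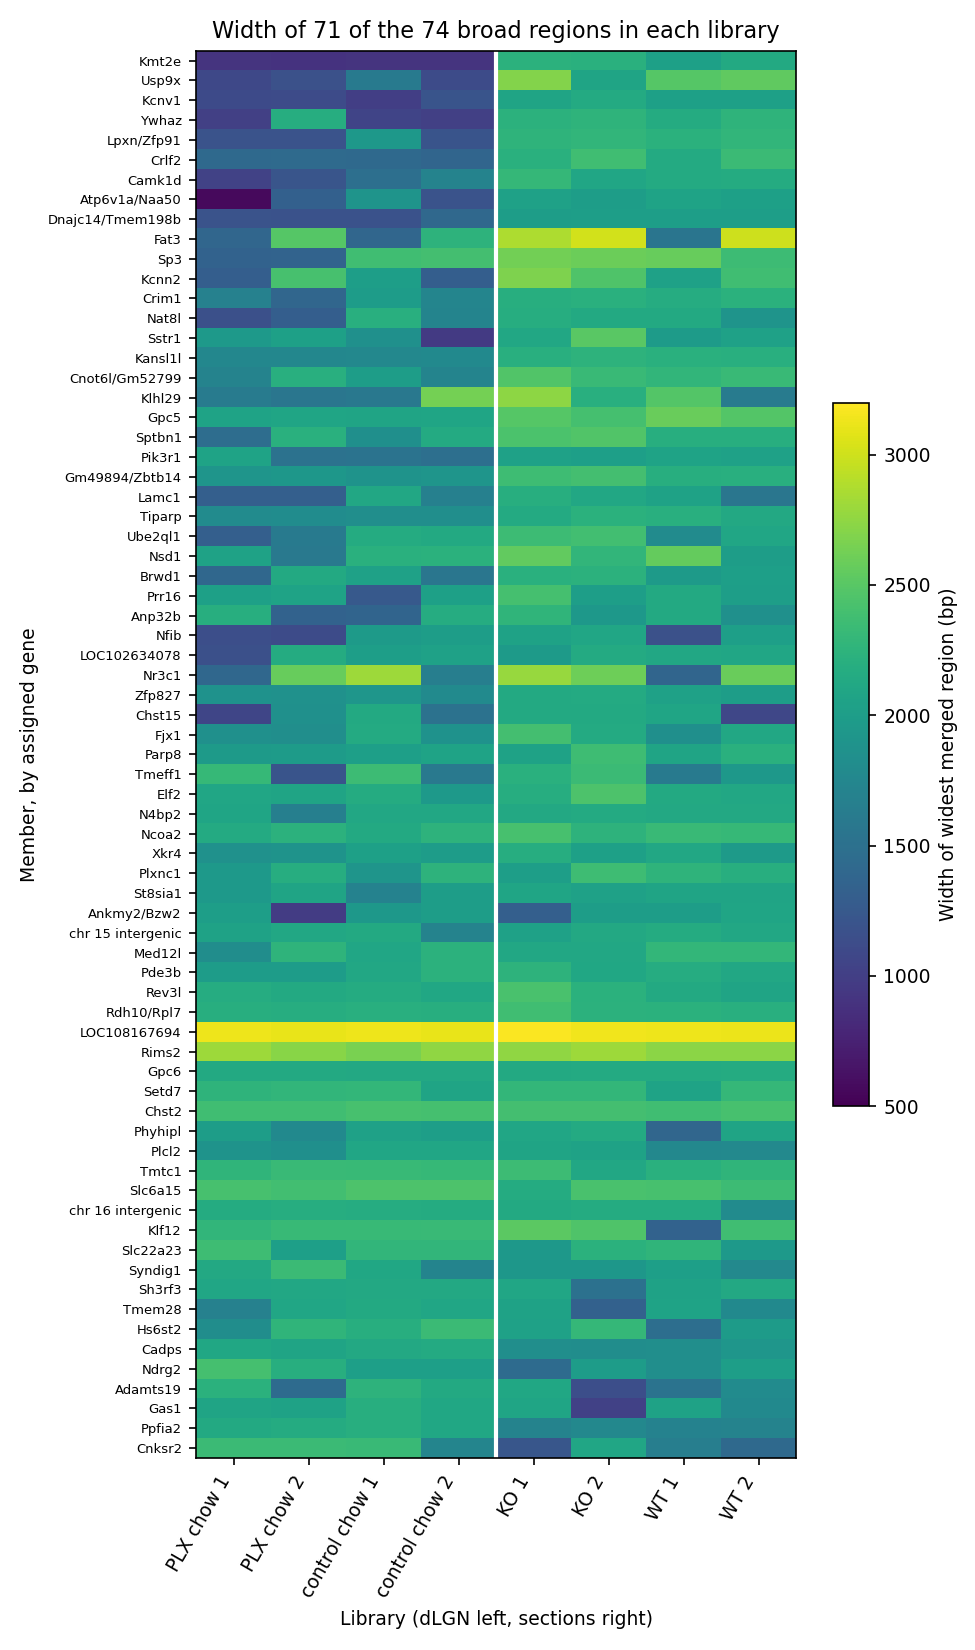
Width in bp (colour) of 71 of the 74 members (vertical axis, named by assigned gene and ordered by dLGN minus section width) in the 8 libraries (horizontal axis, PLX chow and control chow dLGN left, KO and WT sections right). Members at the top, such as Kmt2e and Usp9x, are narrow in dLGN libraries, those at the bottom, such as Ppfia2 and Cnksr2, are narrow in most section libraries, and LOC108167694 is the widest in every library.

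Grouped by role, a grouping made after the members were known and with members outside the widest named after their values were seen, transcription factors and cofactors were the most numerous with 10 members, followed by 7 genes of kinase and phospholipid signalling, 7 of adhesion, matrix and guidance, 6 chromatin proteins, 5 of transmitter release and synapse assembly, 5 of glycan synthesis and proteoglycans, 4 channels and receptors, 3 transporters and 3 ubiquitin enzymes. The widest member of all, chr9:124422792-124425979, overlaps only the predicted genes LOC108167694 and Gm20783 and the noncoding 4930526I15Rik. It measured 3129 and 3113 bp in PLX chow, 3127 and 3115 bp in control chow, 3183 and 3146 bp in KO and 3128 and 3126 bp in WT libraries. Its role is not known, and it changed by 70 bp at most between libraries.

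Among transcription factors the widest was Nr3c1, the glucocorticoid receptor, inside the gene at chr18:39489164-39491986. Its member measured 1398 and 2577 bp in PLX chow, 2801 and 1655 bp in control chow, 2787 and 2599 bp in KO and 1382 and 2579 bp in WT libraries. Both KO libraries, PLX chow 2, control chow 1 and WT 2 held it as 1 region, while the other 3 libraries broke it into 2 or 3. Sp3, a factor that binds GC boxes, measured 1349 and 1363 bp in PLX chow, 2367 and 2388 bp in control chow, 2628 and 2591 bp in KO and 2568 and 2346 bp in WT libraries at chr2:72978505-72981148. The PLX chow libraries stood far below all others. Klf12, a Krüppel-like repressor, had 2277 and 2315 bp in PLX chow, 2321 and 2335 bp in control chow, 2516 and 2453 bp in KO and 1350 and 2373 bp in WT libraries, with WT 1 alone below 2000 bp. Ncoa2, a coactivator of nuclear receptors, stayed between 2137 and 2419 bp. Elf2, an ETS factor, and Zfp827, a zinc finger protein, had medians of 2129.5 and 1961.5 bp.

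Chromatin proteins were led by Setd7, a lysine methyltransferase, with 2259 and 2277 bp in PLX chow, 2289 and 2081 bp in control chow, 2284 and 2285 bp in KO and 2067 and 2301 bp in WT libraries, broad in every library. Nsd1, which methylates lysine 36 of histone H3, had 2053 and 1593 bp in PLX chow, 2213 and 2225 bp in control chow, 2552 and 2277 bp in KO and 2560 and 2005 bp in WT libraries, and PLX chow 2 was the only library below 2000 bp. The member at chr15:8443525-8445690 is assigned to LOC102634078 and also overlaps Nipbl, the loader of cohesin, with a median of 2074 bp. Brwd1, a bromodomain protein, and Kansl1l, a relative of a histone acetyltransferase subunit, had medians of 2032.5 and 1988.5 bp. Kmt2e is described with the tissues.

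Of the genes for transmitter release and synapse assembly, Rims2 had the widest member with 2805 and 2718 bp in PLX chow, 2654 and 2750 bp in control chow, 2755 and 2803 bp in KO and 2733 and 2727 bp in WT libraries (chr15:39196652-39199501). Rims2 encodes a scaffold of the presynaptic active zone, and its 8 widths lay within 151 bp of each other. Cnksr2, a postsynaptic scaffold of Ras signalling on chromosome X, varied most in this group, with 2341 and 2344 bp in PLX chow, 2335 and 1729 bp in control chow, 1221 and 2103 bp in KO and 1650 and 1425 bp in WT libraries. Syndig1, a partner of AMPA receptors, had 2132 and 2339 bp in PLX chow, 2109 and 1716 bp in control chow, 1925 and 1925 bp in KO and 2027 and 1773 bp in WT libraries. The active-zone protein gene Ppfia2 and the vesicle-priming gene Cadps complete the group.

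Channels, receptors and transporters followed. Kcnn2, a calcium-activated potassium channel, had 1312 and 2414 bp in PLX chow, 2013 and 1310 bp in control chow, 2681 and 2459 bp in KO and 2047 and 2367 bp in WT libraries, and the narrow widths of PLX chow 1 and control chow 2 went with 3 separate regions in each. Slc6a15, a neutral amino acid transporter, had 2415 and 2387 bp in PLX chow, 2445 and 2451 bp in control chow, 2156 and 2420 bp in KO and 2418 and 2354 bp in WT libraries and was broad throughout. Slc22a23, of the organic ion transporters, had 2365 and 2029 bp in PLX chow, 2276 and 2273 bp in control chow, 1943 and 2222 bp in KO and 2269 and 1951 bp in WT libraries, all 4 dLGN libraries at 2000 bp or more.

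In kinase and phospholipid signalling, Pik3r1, the regulatory subunit of PI3 kinase, had 2067 and 1513 bp in PLX chow, 1524 and 1489 bp in control chow, 2047 and 2025 bp in KO and 2065 and 2050 bp in WT libraries, and 3 dLGN libraries were the low ones. Ywhaz, a 14-3-3 adaptor, had 1010 and 2187 bp in PLX chow, 1051 and 1015 bp in control chow, 2239 and 2257 bp in KO and 2163 and 2252 bp in WT libraries, again with 3 dLGN libraries low and PLX chow 2 among the section values. Among genes of glycans, Chst2, a sulfotransferase, kept nearly 1 width in all libraries, with 2377 and 2368 bp in PLX chow, 2415 and 2405 bp in control chow, 2397 and 2394 bp in KO and 2372 and 2409 bp in WT libraries. Gpc6 was as even, from 2130 to 2156 bp. Of the adhesion genes, Fat3, an atypical cadherin, had 1386 and 2489 bp in PLX chow, 1394 and 2245 bp in control chow, 2871 and 3011 bp in KO and 1554 and 2993 bp in WT libraries, the widest range of the set in absolute terms. Plxnc1, a semaphorin receptor, had 1961 and 2185 bp in PLX chow, 1904 and 2245 bp in control chow, 2017 and 2365 bp in KO and 2257 and 2195 bp in WT libraries, with KO 1 the lowest of the sections. Other wide members were Tmtc1, a glycosyltransferase of the endoplasmic reticulum, at 2115 to 2350 bp. Cnot6l, a subunit of the deadenylase that shortens mRNA tails, shares its start region with the predicted Gm52799 and ran from 1706 to 2464 bp. The member shared by Rdh10, a retinol dehydrogenase, and Rpl7, a ribosomal protein, spanned 2181 to 2369 bp, and that of Sptbn1, a spectrin of the membrane skeleton, 1462 to 2471 bp.

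Members of the 19 gene lists were few. Of 40 Sox, Fox, Zic and nuclear receptor or NFI factors, Nfib had a member at its start and Nr3c1 1 inside the gene. Of 46 chromatin regulators, Kmt2e had 1, and of 40 housekeeping genes, Ywhaz had 1 inside the gene. The remaining lists, which include homeobox factors, early genes of neuronal activity, genes of synapses, TNF receptors with their NF-kB pathway and the 8 lists of cell type markers, held 0, where 72 of all 21887 protein-coding genes (0.329%) had a member at the start. Lists of 10 to 50 genes can hold few at that share. In any 1 library a region of 2000 bp or more lay at 387 genes, which included the thalamic factor Foxp2, the neural factors Sox2, Sox4 and Zic5, the early gene Jun and the NMDA receptor gene Grin2a. Just inside the limit, by their 4th widest library, were the members at Dnajc14 and Tmem198b with 2002 bp, Ankmy2 and Bzw2 with 2005 bp, and Atp6v1a and Naa50 with 2005 bp. Just outside were regions at Zmynd11, with 1996 bp, and at Map7 with 1993 bp.

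Libraries differed in how many members they held as broad. At 2000 bp or more stood 34 and 39 members in PLX chow, 46 and 44 in control chow, 66 and 65 in KO and 57 and 54 in WT libraries. The median member width was 1962.5 and 2045.5 bp in PLX chow, 2099.5 and 2037.5 bp in control chow, 2188 and 2181.5 bp in KO and 2126 and 2109 bp in WT libraries. Over all merged regions, those of 2000 bp or more numbered 44 and 50 in PLX chow, 71 and 70 in control chow, 261 and 202 in KO and 110 and 127 in WT libraries. The lists held 248989 to 299822 peaks, which merged into 192168 to 218214 regions, and the KO libraries had the longest lists, just under the limit of 300000 peaks in the deposited pipeline instructions. With every list trimmed to the length of the shortest, all 74 members remained. All peaks of a merged region shared the same interval, so trimming could not narrow a region that kept a peak. The trimming therefore does not show whether list length or depth affected widths. The number of sequenced reads is not known. Since section libraries held more broad regions, the rule drew more members from them, and 41 members were broad in all 4 section libraries and 20 in all 4 dLGN libraries.

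**Figure D3:**
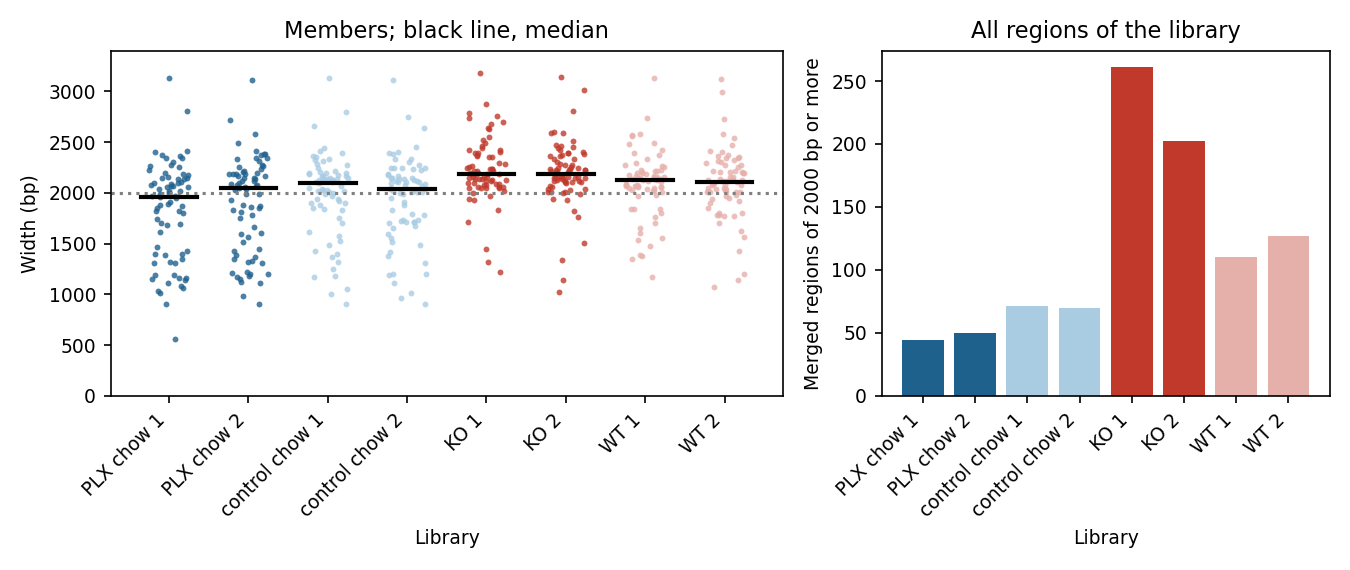
Left, width in bp (vertical axis) of each of the 74 members in each library (points), with the median as a black line and the 2000 bp limit dotted. Right, number of merged regions of 2000 bp or more among all regions of the library (bars), which is 44 to 71 in dLGN libraries and 110 to 261 in section libraries.

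A member under 2000 bp was most often broken into several regions. In dLGN libraries 133 of 296 values, 74 members in 4 libraries, were under 2000 bp, and 94 of these 133 had the member in 2 or more regions. In section libraries 54 of 296 values were under 2000 bp, 37 of them in 2 or more regions. Gaps inside members numbered 129 in dLGN and 57 in section libraries, with medians of 114 and 102 bp, and the 186 gaps ranged from 61 to 564 bp. Summed over all regions of a member, the median cover was 2082 and 2128.5 bp in PLX chow, 2129 and 2110 bp in control chow, 2212 and 2225 bp in KO and 2158 and 2121.5 bp in WT libraries.

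**Figure D4:**
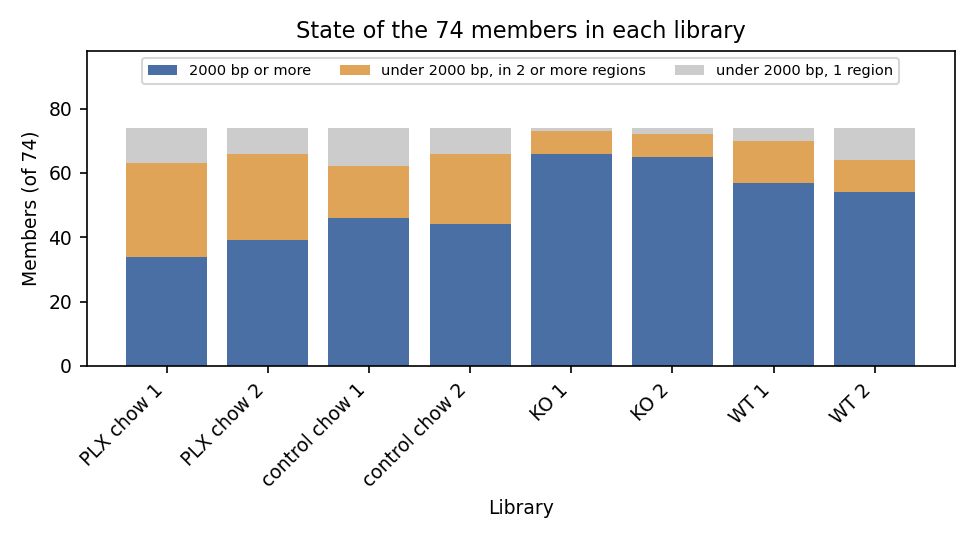
Number of the 74 members (vertical axis) in each library that reached 2000 bp (bottom), stayed under it in 2 or more regions (middle) or stayed under it as 1 region (top). The broken state holds 16 to 29 members in dLGN libraries and 7 to 13 in section libraries.

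The comparison of genotypes asks how accessible chromatin differs without Fn14. A region at the start of Tnfrsf12a, chr17:23677365-23677642, was missing from both KO libraries and measured 264 and 224 bp in WT libraries, as the labels have it, and it measured 212 and 243 bp in PLX chow and 236 and 259 bp in control chow libraries. The start region of Tnfsf12, the gene of TWEAK, at chr11:69695102-69696181, measured 1073 and 997 bp in KO and 884 and 369 bp in WT libraries, so neither gene lies at a member. With widths as deposited, more members were wider in KO libraries than narrower. The rule used these widths, and 66 and 65 members were broad in KO libraries against 57 and 54 in WT libraries. The shares of members may therefore follow in part from the rule, and nothing is read from their distance to all regions. In 30 of 74 members (40.5%) every KO library was wider than every WT library, and in 4 (5.41%) every KO library was narrower, while the same calls were made for 28.6% and 9.77% of the 106886 union regions found in all 4 section libraries. The median member width was 2184.75 ± 4.60 bp in KO and 2117.5 ± 12.0 bp in WT libraries (SD, n = 2 each). Over members the median difference of KO minus WT was 64.75 bp, or 3.09% of the WT width, against 38 bp and 8.70% over all those regions. Members are wider than other regions by the rule, so nothing is read from these distances either. With widths scaled so that all libraries had equal median widths, 2 members were wider in KO and 32 narrower, and with widths shifted by a constant per library instead, 14 and 14. The direction in members therefore depends on how the wider regions of the KO libraries are taken into account. Shares over all regions were not computed for scaled or shifted widths, or with a library left out. Without any 1 of the section libraries 25 to 28 were wider and 9 to 12 narrower, with the members chosen anew. Tmeff1 and Plcl2 were the 2 that stayed wider in KO libraries under scaling, and Med12l, Pik3r1, the Ankmy2 and Bzw2 member and Cadps stayed narrower.

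By the difference of means, members most widened in KO libraries included Nr3c1 (712.5 bp), Klf12 (623 bp), Chst15, Tmeff1, Nfib, Hs6st2 and Ube2ql1. Chst15, a chondroitin sulfotransferase, measured 2140 and 2137 bp in KO and 2092 and 1074 bp in WT libraries (2138.5 ± 2.12 and 1583 ± 719.8 bp, SD, n = 2 each), and its wide gap comes from WT 2. Without WT 2 the difference at Chst15 was 46.5 bp, against 555.5 bp with it. Nr3c1, Klf12 and Nfib had WT 1 as the low library, and without it their differences were 114, 111.5 and 52 bp. In summed cover they were 37.5, 187 and 80 bp, and WT 1 held each of the 3 members in 2 regions. Tmeff1, a transmembrane protein with follistatin domains, measured 2211 and 2337 bp in KO and 1601 and 1938 bp in WT libraries, with both WT libraries low. Its summed cover was 2211 and 2337 bp in KO and 2252 and 2393 bp in WT libraries, so the WT libraries covered as much in 2 regions each.

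Nfib, a factor of the nuclear factor I family that drives glial and cortical development, measured 2057 and 2097 bp in KO and 1173 and 2025 bp in WT libraries. Hs6st2, a heparan sulfate sulfotransferase on chromosome X, measured 2046 and 2301 bp in KO and 1479 and 1983 bp in WT libraries, and Ube2ql1, a ubiquitin-conjugating enzyme, 2352 and 2382 bp in KO and 1803 and 2094 bp in WT libraries. In both, WT 1 was the lowest section library, and without it the differences were 190.5 and 273 bp. Of the 4 members narrower in KO libraries, 1 had a KO library far from the rest. The member of Ankmy2 and Bzw2 measured 1317 and 2001 bp in KO and 2008 and 2091 bp in WT libraries, and KO 1 held it in 2 regions that together covered 2173 bp. Without KO 1 its difference was −48.5 bp. Med12l, a paralogue of a Mediator subunit, measured 2123 and 2114 bp in KO and 2290 and 2290 bp in WT libraries, Cadps 1831 and 1823 bp in KO and 1837 and 1920 bp in WT libraries and Pik3r1 2047 and 2025 bp in KO and 2065 and 2050 bp in WT libraries. In summed cover Cadps had 2000 and 1823 bp in KO and 2007 and 1920 bp in WT libraries, so the groups overlapped. Med12l and Pik3r1 stayed narrower in KO libraries in summed cover.

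By role, 7 of 10 transcription factors and cofactors were wider in KO libraries and 1 narrower, as were 3 and 1 of 7 signalling genes, 3 and 0 of 4 channels and receptors, 2 and 1 of 5 genes for transmitter release and synapses, 2 and 0 of 6 chromatin proteins and 0 and 0 of 3 transporters. In the remaining roles it was 2 and 0 of 7 adhesion, matrix and guidance genes, 2 and 0 of 5 glycan genes and 1 and 0 of 3 ubiquitin enzymes. These counts stand beside 28.6% wider and 9.77% narrower over all regions and are not tested.

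A test free of the rule used regions chosen in the other experiment alone. The 63 regions that were broad in at least 2 of the 4 dLGN libraries, of which 49 are members, had median widths of 2112 and 2130 bp in KO and 2053 and 2073 bp in WT libraries. The groups did not overlap, and the difference of 58 bp had an exact 2-sided permutation p of 0.333, the smallest that 2 against 2 libraries can give, so this design cannot reach 0.05. Of the 63, 21 (33.3%) were wider in every KO library and 5 (7.94%) narrower, beside 28.6% and 9.77% over all regions. Taken region by region, the median difference was 64 bp or 2.98% of the WT width, against 38 bp and 8.70% over all regions. With scaled widths the difference of medians was −147 bp, and with shifted widths 8.5 bp with an exact p of 1, where the groups overlapped.

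The comparison of diets asks how dLGN chromatin differs when microglia are targeted. With widths as deposited, more members were narrower under PLX chow than wider. The rule used these widths, and 34 and 39 members were broad in PLX chow against 46 and 44 in control chow libraries. Shares of members may thus follow in part from the rule, and nothing is read from their distance to all regions. In 26 of 74 members (35.1%) every PLX chow library was narrower than every control chow library, and in 7 (9.46%) every PLX chow library was wider, while 19.6% and 12.9% of the 125906 union regions in all 4 dLGN libraries had these calls. The median member width was 2004 ± 58.7 bp in PLX chow and 2068.5 ± 43.8 bp in control chow libraries (SD, n = 2 each), a difference between groups about as large as the spread within them. The median difference over members was −34.75 bp, or −1.64% of the control width, against −8.5 bp and −1.95% over all regions. With scaled widths 6 members were narrower under PLX chow and 13 wider, and with shifted widths 15 and 13. For these settings too, shares over all regions were not computed. Without PLX chow 2 the narrower members numbered 41, and without KO 1 or KO 2, when fewer regions met the rule, 14 each. Sp3, Nfib, Nat8l, Ube2ql1, Lamc1 and Camk1d stayed narrower under scaling, and Ndrg2, Sstr1, Syndig1 and Cnksr2 stayed wider.

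Sp3 had the greatest narrowing, with 1349 and 1363 bp in PLX chow and 2367 and 2388 bp in control chow libraries (1356 ± 9.9 and 2377.5 ± 14.8 bp, SD, n = 2 each). Both PLX chow libraries held the member in 2 regions, with a summed cover of 2265 and 2263 bp against 2367 and 2388 bp in control chow. In summed cover the difference was −113.5 bp. Nfib measured 1152 and 1120 bp in PLX chow and 1969 and 2006 bp in control chow libraries and was broken in both PLX chow libraries. Nat8l, which makes N-acetylaspartate in neurons, measured 1158 and 1305 bp in PLX chow and 2199 and 1721 bp in control chow libraries, and its summed cover was also lower, at 1536 and 1570 bp under PLX chow and 2199 and 1721 bp under control chow.

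Ube2ql1 measured 1317 and 1601 bp in PLX chow and 2166 and 2140 bp in control chow libraries and Lamc1, a laminin subunit of basement membranes, 1313 and 1318 bp in PLX chow and 2123 and 1672 bp in control chow libraries. Both PLX chow libraries held Lamc1 broken. Its summed cover was 2037 and 1886 bp in PLX chow and 2123 and 1998 bp in control chow, so the groups overlapped. Camk1d, a calcium- and calmodulin-dependent kinase, measured 1030 and 1208 bp in PLX chow and 1486 and 1710 bp in control chow libraries, with all 4 values below 2000 bp. Nsd1 measured 2053 and 1593 bp in PLX chow and 2213 and 2225 bp in control chow libraries, where PLX chow 2 was the low library. Its summed cover, 2222 and 2039 bp in PLX chow and 2213 and 2225 bp in control chow, also overlapped. Ube2ql1 and Camk1d stayed narrower in summed cover. The smallest difference among the narrower members was −18.5 bp, at Kansl1l.

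Of the 7 members wider under PLX chow, Sstr1, a somatostatin receptor, measured 1950 and 2039 bp in PLX chow and 1852 and 963 bp in control chow libraries, with control chow 2 low, and without that library the difference was 142.5 bp. Prr16, a regulator of cell size, measured 2036 and 2062 bp in PLX chow and 1251 and 2034 bp in control chow libraries, and here control chow 1 was low and broken in 2 regions that covered 2087 bp. Without control chow 1 the difference at Prr16 was 15 bp. Syndig1 and Cnksr2 each had control chow 2 low, and differed by 323 and 310.5 bp. Without control chow 2 these differences were 126.5 and 7.5 bp. Ndrg2, a gene of astrocytes, measured 2406 and 2193 bp in PLX chow and 2024 and 2019 bp in control chow libraries and was at 2000 bp or more in all 4. The member shared by Zbtb14 and the predicted Gm49894 and that of Gpc6 differed by 25 and 11.5 bp. By role, 4 of 10 transcription factors and cofactors were narrower and 1 wider, 4 and 0 of 7 signalling genes, 4 and 0 of 7 adhesion and matrix genes, and 1 and 2 of 5 genes for transmitter release and synapses, beside 19.6% and 12.9% over all regions. In the remaining roles it was 2 and 0 of 6 chromatin proteins, 2 and 0 of 3 ubiquitin enzymes and 1 and 0 of 3 transporters. Glycan genes had 1 and 1 of 5, and channels and receptors 0 and 1 of 4. These counts by role are not tested.

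Starts of 18 microglial markers met a region for 8 and 8 in PLX chow, 10 and 12 in control chow, 15 and 14 in KO and 13 and 12 in WT libraries, and the widths of these regions summed to 4306 and 5622 bp in PLX chow, 3512 and 5221 bp in control chow, 9195 and 8151 bp in KO and 5601 and 6624 bp in WT libraries. The same 10 markers had no region at the start in either PLX chow library. Of these, Trem2 and Siglech had a region in both control chow libraries, Csf1r, C1qb and C1qc in 1 of them, and Cx3cr1, Aif1, C1qa, Fcrls and Itgam in neither. Tmem119 went the other way, with a region in both PLX chow libraries and in control chow 2 but not in control chow 1. In sections Csf1r was also without a region in KO 2, WT 1 and WT 2, and Aif1 and Itgam in all 4 libraries. Counts for other cell types varied too. Of 12 excitatory neuron markers 8 and 10 met a region in PLX chow, 9 and 7 in control chow, 11 and 11 in KO and 10 and 10 in WT libraries. Of 16 inhibitory neuron markers 13 and 15, 15 and 16, 14 and 14 and 12 and 12 did, in the same order. All 16 oligodendrocyte markers did in each dLGN library. None of the 74 members lies at a microglial marker, and the part of the difference in microglial markers in the members' widths was not tested. Regions chosen in sections alone, 179 that were broad in at least 2 of the 4 section libraries and of which 68 are members, had median widths of 1484 and 1571 bp in PLX chow and 1668 and 1678 bp in control chow. The groups did not overlap, the difference of these medians was −145.5 bp, and the exact 2-sided permutation p was 0.333, the smallest possible. In summed cover the difference of medians was −52 bp, and with scaled widths −77.4 bp with an exact p of 0.667. Taken region by region, the median difference was smaller, at −32 bp or −1.92% of the control width. Over all regions it was −8.5 bp and −1.95%. Of the 179, 51 (28.5%) were narrower in every PLX chow library and 19 (10.6%) wider, beside 19.6% and 12.9% over all regions. These counts were not tested.

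**Figure D5:**
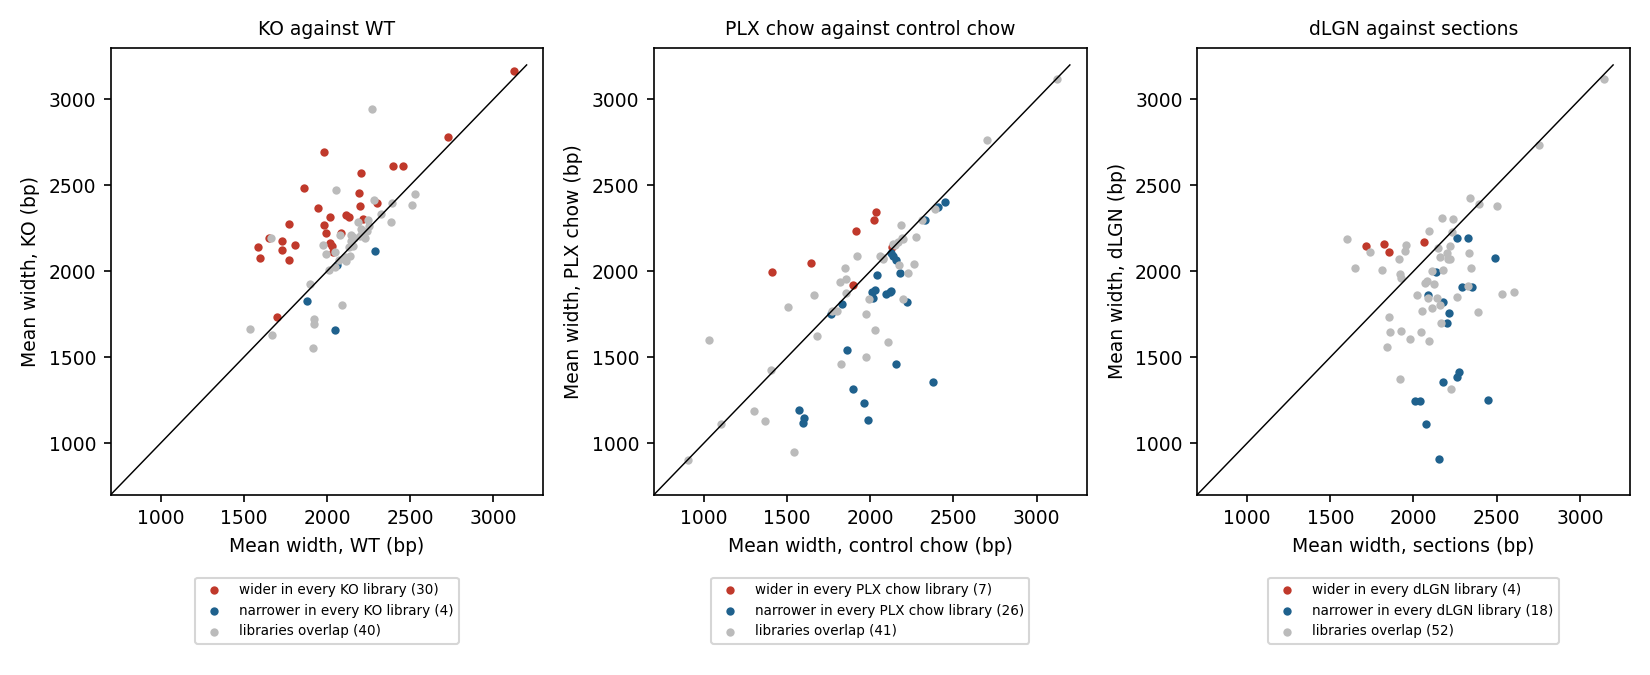
Mean width in bp of each of the 74 members, KO against WT (left), PLX chow against control chow (middle) and dLGN against sections (right), with the line of equal width. Red points are wider and blue points narrower in every library of the group on the vertical axis, 30 and 4 for KO, 7 and 26 for PLX chow and 4 and 18 for dLGN, and grey points overlap.

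The dLGN and section libraries were also set side by side. Members averaged a median width of 2036.25 ± 56.4 bp in dLGN and 2151 ± 39.5 bp in section libraries (SD, n = 4 each). In 18 of 74 members (24.3%) every dLGN library was narrower than every section library, and in 4 (5.41%) every dLGN library was wider, while 11.7% and 8.57% of the 71365 regions in all 8 libraries had these calls. The median difference was −182.25 bp over members and −24.75 bp over those regions, and the mean dLGN width was lower in 57 members and higher in 17. By summed cover the difference over members was −87.9 bp. Without KO 1, KO 2 or WT 2, with the members chosen anew, 7, 6 and 10 members were narrower in dLGN. The rule used all 8 libraries, so nothing is read from these shares.

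Kmt2e, a relative of the histone methyltransferases of lysine 4, had the greatest difference of −1247.25 bp, with 908 and 900 bp in PLX chow and 907 and 908 bp in control chow dLGN, against 2234 and 2211 bp in KO and 2032 and 2135 bp in WT sections. Every dLGN library held its member (chr5:23432487-23434855) in 2 regions, with a summed cover of 1721 and 1749 bp in PLX chow and 1740 and 1678 bp in control chow, still below the 2032 bp of the lowest section library. Usp9x, a deubiquitinase on chromosome X, measured 1087 and 1174 bp in PLX chow and 1616 and 1116 bp in control chow dLGN, against 2697 and 2072 bp in KO and 2488 and 2539 bp in WT sections. Its dLGN libraries and KO 2 held it in 2 or 3 regions. Its summed cover was 2115 and 2261 bp in PLX chow and 2258 and 2113 bp in control chow dLGN, still below that of each section library.

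Kcnv1, a silent potassium channel subunit that modifies other channels, differed in another way. It measured 1110 and 1116 bp in PLX chow and 1006 and 1204 bp in control chow dLGN, against 2073 and 2153 bp in KO and 2035 and 2039 bp in WT sections and was held as 1 region in each library, so that its dLGN form was shorter and not broken. Lpxn, a focal adhesion adaptor, and Zfp91, a zinc finger ubiquitin ligase, share a member of opposite starts that measured 1190 and 1196 bp in PLX chow and 1942 and 1203 bp in control chow dLGN, against 2258 and 2274 bp in KO and 2229 and 2279 bp in WT sections. Control chow 1 stood apart from the other dLGN libraries and kept it as 1 region.

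Crlf2, a cytokine receptor, measured 1423 and 1431 bp in PLX chow and 1427 and 1381 bp in control chow dLGN, against 2219 and 2374 bp in KO and 2150 and 2343 bp in WT sections, and Camk1d 1030 and 1208 bp in PLX chow and 1486 and 1710 bp in control chow dLGN, against 2296 and 2103 bp in KO and 2149 and 2159 bp in WT sections. The member of Atp6v1a, the catalytic subunit of the vacuolar proton pump, and of the acetyltransferase gene Naa50 measured 564 and 1330 bp in PLX chow and 1897 and 1191 bp in control chow dLGN, against 2047 and 2005 bp in KO and 2063 and 2036 bp in WT sections, with the narrowest value of the set in PLX chow 1. The member of Dnajc14, a chaperone, and Tmem198b, a membrane protein, measured 1191 and 1180 bp in PLX chow and 1185 and 1416 bp in control chow dLGN, against 2002 and 2012 bp in KO and 2018 and 2009 bp in WT sections. Its 4 section values lay within 16 bp of each other and just above the limit. Every dLGN library held the Crlf2 member in 2 regions. They covered 2082 and 2089 bp in PLX chow and 2022 and 2010 bp in control chow. The dLGN libraries held the Dnajc14 and Tmem198b member in 2 or 3 regions that covered 1583 to 1833 bp. In PLX chow 1 the Atp6v1a and Naa50 member was in 3 regions that covered 1663 bp. Camk1d was broken in all dLGN libraries but PLX chow 2. In summed cover these members all stayed narrower in dLGN. Tiparp, an ADP-ribosyltransferase induced by the aryl hydrocarbon receptor, was held as 1 region in every library and measured 1803 and 1816 bp in PLX chow and 1832 and 1834 bp in control chow dLGN, against 2155 and 2228 bp in KO and 2203 and 2128 bp in WT sections. The groups were far apart and each was even, a pattern also seen at Kansl1l. Tiparp and Kansl1l were named here after their values were seen.

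Of the 4 members wider in dLGN, Ppfia2, which encodes liprin-α2 of the active zone, measured 2135 and 2165 bp in PLX chow and 2192 and 2107 bp in control chow dLGN, against 1709 and 1760 bp in KO and 1698 and 1703 bp in WT sections (2149.8 ± 36.8 and 1717.5 ± 28.7 bp, SD, n = 4 each). The section libraries held the same stretch in 2 regions each, with a summed cover of 1923 and 2187 bp in KO and 2116 and 2106 bp in WT, so that most of the stretch was covered there too. Cadps measured 2107 and 2076 bp in PLX chow and 2125 and 2148 bp in control chow dLGN, against 1831 and 1823 bp in KO and 1837 and 1920 bp in WT sections, and no section library reached 2000 bp. KO 1 and WT 1 each held it in 2 regions, with a summed cover of 2000 and 2007 bp. These stayed below the 2076 bp of the lowest dLGN library.

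Ndrg2 measured 2406 and 2193 bp in PLX chow and 2024 and 2019 bp in control chow dLGN, against 1446 and 1993 bp in KO and 1836 and 2011 bp in WT sections, with KO 1 the lowest. The region of chromosome 16 with no gene within 50 kb measured 2160 and 2184 bp in PLX chow and 2172 and 2162 bp in control chow dLGN, against 2143 and 2157 bp in KO and 2157 and 1801 bp in WT sections, and its call rests on differences of a few bp except in WT 2, without which the difference was 17.2 bp. With scaled or shifted widths Ppfia2 and Cadps alone stayed wider in dLGN. By role, 2 of the 5 genes for transmitter release and synapses were wider in dLGN and 0 narrower, against 0 and 4 of 10 transcription factors and cofactors, 0 and 2 of 6 chromatin proteins and 0 and 1 of 4 channels and receptors, beside 8.57% and 11.7% over all regions. In the remaining roles it was 0 and 1 of 7 signalling genes, 0 and 1 of 7 adhesion, matrix and guidance genes and 0 and 0 of 5 glycan genes. Transporters and ubiquitin enzymes each had 0 and 1 of 3. These counts are not tested.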

How the data were processed

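ATAC-seq libraries, 2 per group, were analysed from the authors' deposited peak lists (mm10). Per the deposited pipeline instructions they came from the ENCODE ATAC-seq pipeline, with paired-end reads, multimapping set to 0, a p-value threshold of 0.01 and at most 300000 peaks. Each list was called per library and gives for each peak a display score, a signal value (the ratio, as fold over local background), a −log10 p-value, a −log10 q-value and the position of the summit, in the narrowPeak layout deposited by the authors. The names of the deposited lists state that duplicates and mitochondrial reads were removed. The submitters' processing notes name deepTools 3.5.0, with no step. For the aligner and for the peak caller, the name is not given in the sources used here. Longer or deeper lists can widen regions, and depth per library is unknown.

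Overlapping peaks were merged within a library and the merged lists joined into a union. A region counted as wider or narrower when the groups' libraries did not overlap, over regions found in all libraries compared. Median widths of regions chosen in the other experiment were compared with an exact 2-sided permutation test. Since nothing shows that libraries of a group are separate animals, the p-values measure only the spread between libraries. Shares carry 95% Wilson intervals, which cover counting error. Genes and promoters were taken from RefSeq GRCm38.p6, and motifs (the TATA core TATAAA, the GC-box core GGGCGG, the CCAAT box, the AP-1 site TGACTCA and the E-box CACGTG) were searched on both strands, with overlaps between motifs not removed.

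The members and lists were chosen with earlier results of these data known. Genes named by rule were the 20 widest members, listed genes with a member, the members nearest the limit, Tnfrsf12a and Tnfsf12, and the 8 with the greatest difference each way in each comparison, among those that did not overlap. A few of them are not reported here, although all counts include them. Other members were named after their values were seen. The steps, run with Python 3.11.15, numpy 2.4.6, pandas 2.3.3, scipy 1.17.1 and matplotlib 3.10.9, were tested on simulated data. The alternatives tried are given after the results.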

Additional observations from a re-analysis of the deposited data

Results flagged for a closer look

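Among the members named by their difference between dLGN and sections, 7 had 1 library far from the other 3 of its tissue, measured as its gap to the nearest library over the range of the 4. At the member shared by Lpxn and Zfp91 the ratio was 0.983, with control chow 1 at 1942 bp and the other dLGN libraries at 1190 to 1203 bp. The chromosome 16 region with no gene nearby had 0.961, with WT 2 at 1801 bp and the other sections at 2143 to 2157 bp. The Dnajc14 and Tmem198b member had 0.953, with control chow 2 at 1416 bp above 1180 to 1191 bp in dLGN. Kmt2e had 0.875 in dLGN, although its 4 values spanned 900 to 908 bp. Cadps had 0.856 in sections, with WT 2 at 1920 bp above 1823 to 1837 bp. Crlf2 had 0.84 in dLGN, with control chow 2 at 1381 bp below 1423 to 1431 bp. Usp9x had 0.836 in dLGN, with control chow 1 at 1616 bp above 1087 to 1174 bp. Chance alone passes this limit in about 5% of groups of 4, and over all members in both tissues 34 of 148 groups passed it, 24 of them with the far library at the low end. The highest ratio of all was 0.985 at Cnksr2 in dLGN, with control chow 2 at 1729 bp below 2335 to 2344 bp. Other named members past the limit were Prr16 (0.965), Ywhaz (0.965), Pik3r1 (0.939), the Ankmy2 and Bzw2 member (0.926) and Setd7 (0.856) in dLGN, and Chst15 (0.955), Setd7 (0.927), Nfib (0.922), Fat3 (0.904), the Ankmy2 and Bzw2 member (0.884), Klf12 (0.877), Nr3c1 (0.852) and Nat8l (0.835) in sections.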

How the results depend on the processing

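Having 2 libraries per group limits every comparison: the exact test cannot go below 0.333, and 1 broken region can move a call. Read depth is not known.

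Members numbered 1004 with a limit of 1500 bp, 1 with 3000 bp, 32 when 6 of 8 libraries had to be broad, 121 when peaks up to 100 bp apart were merged (the 74 among them) and 48 to 69 with 1 library left out and 4 of the other 7 required, the lowest without KO 1 (48) and KO 2 (49). A limit of 3000 bp left 100% at a gene start, and leaving out 1 library 83.3% to 87.9%. The members were chosen anew under these settings. Counts of wider and narrower members in this section have no matching share over all regions, which was not computed.

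KO against WT had 406, 1 and 11 members wider and 54, 0 and 1 narrower under limits of 1500 bp, 3000 bp and 6 of 8 libraries. Scaled widths gave 2 wider and 32 narrower, shifted widths, added after the data were seen, 14 and 14, summed cover 2 narrower and merging across gaps 9 narrower. Leaving out 1 library gave 23 to 28 wider and 3 to 12 narrower, 9 or more without any section library. The median difference was 37.5 bp at 3000 bp, 34.5 bp for 6 of 8 libraries, −139 bp scaled, 15.25 bp shifted and 25 to 100 bp with 1 library left out, lowest without WT 2. In regions chosen in dLGN the difference of the libraries' median widths was −147 bp scaled, 8.5 bp shifted (exact p of 1), and 31.5 to 68 bp with 1 library left out.

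PLX chow against control chow had 100, 0 and 2 members wider and 249, 0 and 11 narrower under limits of 1500 bp, 3000 bp and 6 of 8 libraries, 13 and 6 scaled, 13 and 15 shifted, 12 and 45 merged across gaps, and 4 to 18 and 14 to 41 with 1 library left out. The narrower count was 14 without KO 1 or KO 2 and 41 without PLX chow 2, and the wider count 18 without PLX chow 1 and 11 to 13 without another dLGN library. The median difference was 51.1 bp scaled and −45.5 to −8 bp with 1 library left out. In regions chosen in sections the difference of the libraries' median widths was 45.75 bp at 3000 bp, from few regions, and −59.5 bp at 1500 bp. It was −52 bp in summed cover, −77.4 bp scaled (exact p of 0.667) and −189 to −83.5 bp with 1 library left out.

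dLGN against sections had 15, 0 and 1 members wider and 281, 0 and 4 narrower under limits of 1500 bp, 3000 bp and 6 of 8 libraries, 2 wider under scaled and under shifted widths, 32 narrower merged across gaps, and 2 to 4 wider and 6 to 22 narrower with 1 library left out, lowest without KO 1 (7), KO 2 (6) and WT 2 (10), and 2 wider without control chow 1. The median difference was −24.75 bp at 3000 bp, −88.25 bp for 6 of 8 libraries, −87.9 bp in summed cover and −183 to −80.5 bp with 1 library left out.

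Of single members, Tmeff1 changed sign in KO against WT with summed cover (−48.5 bp), as did Ankmy2 and Bzw2 (37.5 bp, and 72 bp merged across gaps). Under PLX chow Prr16 changed sign (−11.5 bp summed, −52.5 bp merged). With a replicate block, where numbers pair libraries, KO libraries were wider in 39 members and narrower in 9, PLX chow libraries wider in 10 and narrower in 30, and the exact p was 0.5 for chosen regions. Deviations of same-numbered libraries over members correlated at 0.112 for genotype and −0.207 for diet, so the numbers are not taken to pair libraries. Crossed numbers gave 10 wider and 34 narrower under PLX chow. A further 84 values for single members kept their direction but moved by over 1.5 times, 20 of them in summed cover, 14 merged across gaps, 11 scaled and 4 shifted, the rest with 1 library left out. Among them Nr3c1 (712.5 bp wider in KO) was at 37.5 bp summed and 5.5 bp merged, Klf12 (623 bp) at 187 and 145 bp, and Nfib (478 bp) at 80 and 35 bp. Another 466 values for single members stayed within that limit. A q-value limit of 0.05 and lists of equal length kept all 74 members, but dropping peaks cannot narrow a region that keeps a peak. The causes were not tested.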
